A study of Mus musculus with 12 samples.

Results

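Of the 43472 genes listed for these mouse embryos, 58 are Rab small GTPases, taken as every gene whose symbol is Rab followed by a number and at most a letter and a digit. The 12 RNA-seq libraries come from embryos of the CD1 strain that had received siRNA as zygotes. There are 6 groups of 2 libraries: Tdgf1 siRNA and negative control siRNA, each at morula, early blastocyst and late blastocyst. Tdgf1 encodes Cripto, a co-receptor for Nodal. Zygotes of every group also got GFP mRNA to mark injected embryos, so no group is uninjected. How many embryos made up a library is unknown here, and nothing in the labels says that the libraries of a group came from separate cultures or litters. The p-values below therefore rest on a spread that may be technical.

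Rab proteins switch between a GDP-bound form held in the cytosol and a GTP-bound form on membranes, where they recruit motors, tethers and other effectors. Members are assigned to steps of vesicle traffic, often several to a step: budding from the endoplasmic reticulum and Golgi, early endosome fusion, recycling back to the surface, delivery to lysosomes, or secretion. In the blastocyst the outer cells become trophectoderm, an epithelium with apical and basolateral membranes that depends on polarized delivery and recycling. The inner cells form epiblast and primitive endoderm.

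Libraries held 10524640 to 13770264 reads, so that 3 reads, which is what a count of 0 allows, equal 0.218 to 0.285 CPM, read counts scaled to a common library size. This covers counting error only. The first principal component, which ordered the libraries by stage, carried 70.8% of the variance. The early blastocyst libraries numbered 1 (1.20 for Tdgf1 siRNA, 6.01 for control siRNA) lay nearer the late blastocysts on it than those numbered 2 (-15.9 and -20.2). The late blastocyst library of Tdgf1 siRNA replicate 1 scored 46.9, against 56.5 to 60.5 in the other 3. Summed over 8 trophectoderm markers, the level was 566 to 871 CPM in morulae, 1780 to 4113 CPM in early blastocysts and 6321 to 8838 CPM in late blastocysts. In early blastocysts it was 3840 and 4113 CPM in the libraries numbered 1, against 1955 and 1780 CPM in those numbered 2. The 6 epiblast markers summed to 691 to 994 CPM, 775 to 906 CPM and 245 to 313 CPM over the 3 stages, and the 6 primitive endoderm markers to 748 to 779 CPM, 698 to 912 CPM and 974 to 1112 CPM. Markers of cells around the embryo were low: 8 cumulus and granulosa genes summed to 3.67 to 23.2 CPM, 7 blood genes to 4.56 to 27.2 CPM with Hbb-bt at 0, and 5 oviduct and uterus genes to 0.413 to 3.54 CPM with Foxj1 at 0. Each of these sums is weighted by its most abundant genes, among them Krt8, Krt18, Nanog, Pou5f1, Amhr2 and Cd68. In the primitive endoderm sum Dab2 and Gata6 averaged 525 and 296 CPM, beside 7.74 CPM for Gata4 and 13.4 CPM for Sox17. The sums therefore do not measure the abundance of a cell type. The part of these cell types in the differences below was not tested.

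Of the 58 Rab genes, 40 had a mean of at least 3.582 CPM and were tested, and 18 lay below that filter. The counts below include Rab15, Rab39 and Rab43, which reached it only through the stage where they were high. All 58 are annotated as protein coding in GENCODE M21 (GRCm38). Between late blastocyst and morula, 14 of the 40 rose and 9 fell (limma with Benjamini-Hochberg adjustment over all 10751 genes tested, adjusted p under 0.05, n = 4 libraries a stage over both siRNAs). That is 35% and 22.5% of the tested members, beside 36.6% and 24.3% of all genes tested. The median log2 change was 0.15 over the members and 0.13 over all genes, so neither the share of members called nor their median stood far from that of all genes. From morula to early blastocyst 10 members rose and 6 fell, where 19.7% and 14.0% of all genes did, with medians of 0.04 for the members and 0.05 for all genes. From early to late blastocyst 9 rose and 4 fell, where 27.0% and 17.7% of all genes did, with medians of 0.11 and 0.09. The 4 falling members became 7 with trimmed-mean (TMM) scaling, 8 each with edgeR and DESeq2 on the recovered reads, and 7 without the early blastocyst library of Tdgf1 siRNA replicate 2. Without the late blastocyst library of Tdgf1 siRNA replicate 1, 15 members rose and 7 fell between late blastocyst and morula. Over all genes, the 1902 falling from early to late blastocyst became 2332 with TMM scaling, 2350 with edgeR and 2470 with DESeq2. Under TMM scaling the median of all genes for late blastocyst minus morula was 0.01 and under quantile scaling -0.07, which bears on small changes. Of all genes called, 60.0% were higher in late blastocysts as deposited, against 46.6% under quantile scaling, where 13 members were higher and 11 lower. In whole-embryo libraries, fewer cells of a type and less RNA per cell cannot be told apart.

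**Figure D1:**
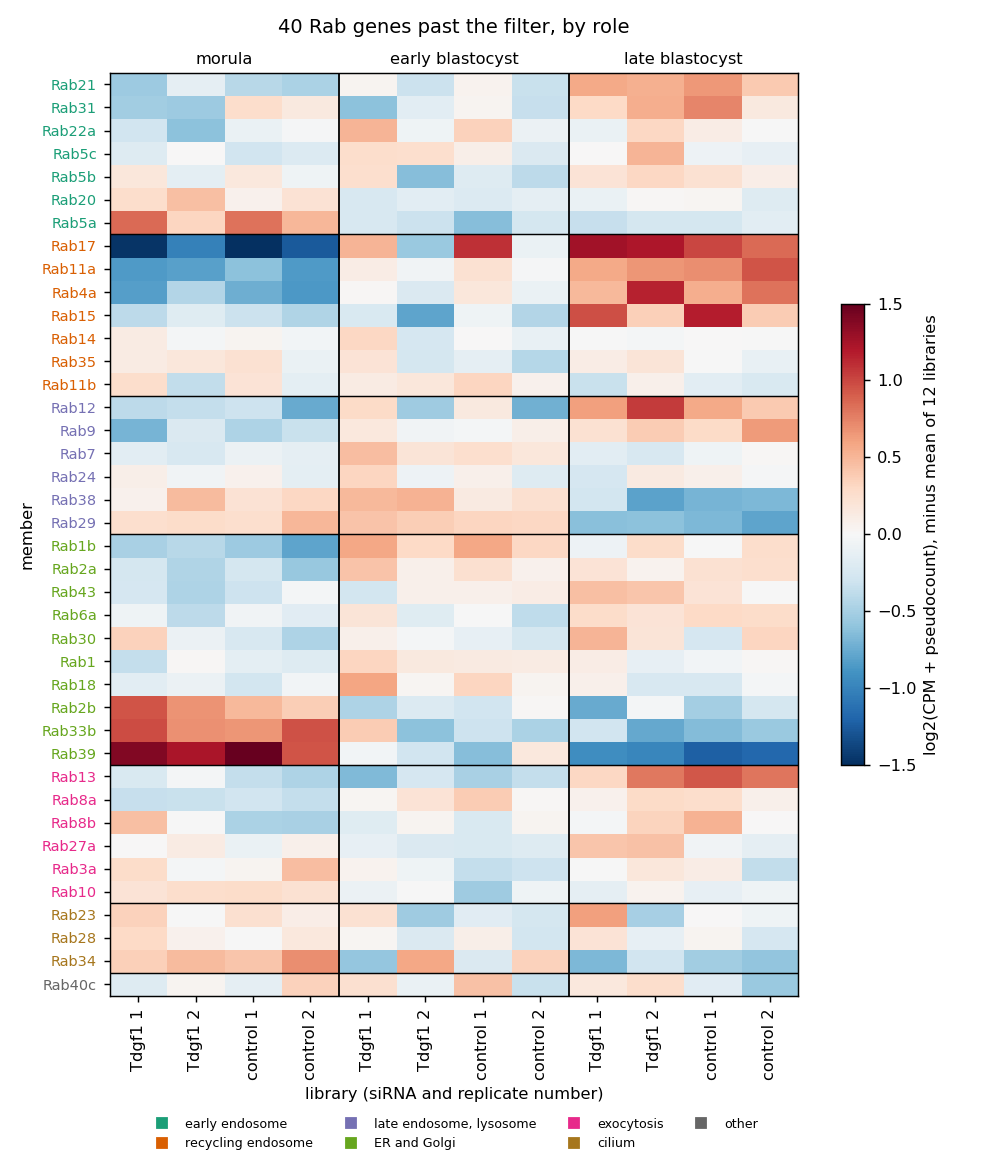
Level of each of the 40 tested Rab genes in each of the 12 libraries, as log2(CPM + pseudocount) minus the mean of that gene over all libraries (colour scale, whose end colours also stand for values beyond it), with genes grouped by role. The recycling genes Rab17, Rab11a and Rab4a change from blue in morulae to red in late blastocysts, and Rab39, Rab33b and Rab2b change the other way.

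The summed level of the whole family was 3063 to 3273 CPM in morulae, 3322 to 4013 CPM in early blastocysts and 3576 to 3737 CPM in late blastocysts. Within it, the 9 recycling endosome genes took a mean of 16.5% of Rab reads in morulae, 19.2% in early blastocysts and 24.1% in late blastocysts. The late blastocyst range of 23.2% to 24.8% lay above the morula range of 15.9% to 17.2%. The 7 early endosome genes took 19.9%, 12.2% and 13.6% over the same stages. The 14 endoplasmic reticulum and Golgi genes took 32.4%, 36.4% and 32.6%, and the 8 late endosome and lysosome genes 18.15%, 19.97% and 17.2%. The 12 genes of exocytosis took 10.8%, 10.5% and 10.8%. These shares are weighted by the few abundant genes of each role and carry no test.

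Compared per kb of exon, Rab2a stood highest of the family, with a mean of 157 CPM per kb over the 12 libraries. Next came Rab7 (130.1 CPM per kb), Rab1 (94.2 CPM per kb), Rab11a (90.3 CPM per kb), Rab20 (88.7 CPM per kb) and Rab24 (61.5 CPM per kb). The order changed with stage. Rab11a stood at 47.6 ± 3.94 CPM per kb in morulae, 86.6 ± 7.95 in early blastocysts and 137 ± 15.6 in late blastocysts (SD, n = 4 each). Rab5a stood at 66.4 ± 11.6, 33.0 ± 4.05 and 35.5 ± 1.97 CPM per kb over the same stages. Thus Rab5a lay above Rab11a in morulae, and Rab11a lay above Rab5a in both blastocyst stages, by more than the SDs. Rab24 shares 62.4% of its exon bases with Prelid1 on the opposite strand, which averaged 511 CPM, and strand is not stated, so the level of Rab24 is uncertain. For Rab20 the shared part is 25.6% (with E230013L22Rik, mean 14.4 CPM) and for Rab6a 19.0% (with Mrpl48, mean 68.5 CPM).

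Among the genes of recycling endosomes, which return receptors and adhesion proteins to the surface, 4 of the 7 tested rose between late blastocyst and morula and 0 fell. This and the counts of the other roles stand beside the 36.6% higher and 24.3% lower of all genes tested, and with so few genes a role they are descriptions only. Rab17 is known for transcytosis and recycling in polarized epithelia, and lies on chromosome 1 (90958133 to 90969661, minus strand). With Tdgf1 siRNA it stood at 10.3 and 15.5 CPM in morulae, 51 and 22.6 CPM in early blastocysts and 88.6 and 85.5 CPM in late blastocysts. With control siRNA it stood at 9.89 and 12.4 CPM, 78.5 and 32.4 CPM and 73.4 and 65.9 CPM over the same stages. Every late blastocyst library lay above every morula library (log2 change 2.40, SE 0.26, limma adjusted p = 3.34e-06). The early blastocysts spread over 22.6 to 78.5 CPM. Libraries numbered 1 lay above those numbered 2 in both siRNAs, the same order as their trophectoderm marker sums. Members that did not rise shared this order, as given below for Rab14 and Rab33b. The rise from morula to early blastocyst was 1.55 on the log2 scale (SE 0.26, limma adjusted p = 0.000643). It was 2.29 over the libraries numbered 1 and 0.81 over those numbered 2, past the threshold in both. The rise from early to late blastocyst was 0.84 (SE 0.26, limma adjusted p = 0.0172). That call was lost over libraries numbered 1 alone (0.33, limma adjusted p = 0.196) and with the 2 siRNAs of a pair averaged (limma adjusted p = 0.0643).

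Rab11a, which directs recycling endosomes to the apical surface, lies on chromosome 9 (64715299 to 64737758, minus strand). Tdgf1 siRNA embryos held 136 and 139 CPM as morulae, 266 and 237 CPM as early blastocysts and 367 and 393 CPM as late blastocysts. Control siRNA embryos held 159.8 and 135 CPM, 289.6 and 244 CPM and 401 and 476 CPM over the same stages. No 2 stages overlapped. The log2 change was 0.85 from morula to early blastocyst (SE 0.11, limma adjusted p = 0.000106), 0.65 from early to late blastocyst (SE 0.11, limma adjusted p = 0.000358) and 1.5 over both steps (SE 0.11, limma adjusted p = 1.11e-07). Rab4a is a gene of the fast recycling route. The Tdgf1 siRNA libraries read 12.9 and 18 CPM at morula, 26.1 and 21.7 CPM at early blastocyst and 37.6 and 61.8 CPM at late blastocyst. The control siRNA libraries read 14.1 and 12.5 CPM, 29.5 and 23.8 CPM and 39.1 and 48.1 CPM over the same stages. All late blastocysts lay above all morulae (log2 change 1.47, SE 0.18, limma adjusted p = 9.13e-06). Its early blastocyst levels, 21.7 to 29.5 CPM, lay between, and its rise to that stage (0.69, SE 0.18, limma adjusted p = 0.0094) was not past the threshold over Tdgf1 siRNA libraries alone (limma adjusted p = 0.167) or libraries numbered 2 alone (limma adjusted p = 0.0564).

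Rab15, described on early and recycling endosomes, was low through the early blastocyst. Levels with Tdgf1 siRNA were 2.07 and 2.93 CPM in morulae, 2.71 and 0.689 CPM in early blastocysts and 10.8 and 5.91 CPM in late blastocysts. Levels with control siRNA were 2.33 and 1.81 CPM, 3.47 and 1.89 CPM and 13.1 and 6.02 CPM over the same stages. All late blastocysts lay above the 0.689 to 3.47 CPM of the early blastocysts. The rise from early to late blastocyst was 1.10 (SE 0.22, limma adjusted p = 0.00129), while morula and early blastocyst overlapped. Rab15 averaged 2.28 CPM in morulae and 2.19 CPM in early blastocysts, both under the filter, so it was tested only because of its late blastocyst level of 8.97 CPM and had to differ. Rab11b, Rab14 and Rab35, the other tested recycling genes, did not pass in any stage comparison. Rab11b, close in sequence to Rab11a, averaged 121 ± 25.1 CPM in morulae, 136 ± 10.8 CPM in early blastocysts and 108 ± 14.0 CPM in late blastocysts (SD, n = 4 each). Rab14, which links the Golgi and endosomes, averaged 195 ± 10.6 CPM in morulae, 193 ± 33.6 CPM in early blastocysts and 191 ± 2.19 CPM in late blastocysts (SD, n = 4 each). Rab35, known for recycling and for cytokinesis, averaged 36.7 ± 3.87, 30.5 ± 6.52 and 35.1 ± 3.63 CPM over the stages.

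Rab25, a relative of Rab11a found mainly in epithelia, lay below the filter at a mean under 3.582 CPM. With Tdgf1 siRNA it stood at 0.518 and 0.275 CPM in morulae, 0.738 and 0.919 CPM in early blastocysts and 2.79 and 6.71 CPM in late blastocysts. With control siRNA it stood at 0.187 and 1.05 CPM, 2.07 and 0.581 CPM and 9.17 and 8.25 CPM over the same stages. These are 2 to 107 reads per library. In a fit with no filter on low values its log2 change between late blastocyst and morula was 1.29 (SE 0.19, limma adjusted p = 0.00127). Rab4b, the paralog of Rab4a, had 0 to 6 reads per library. It shares 65.0% of its exon bases with Gm21983 on the same strand, itself at 0 CPM. How reads in shared exons were counted is unknown here, so the level of Rab4b is uncertain.

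**Figure D2:**
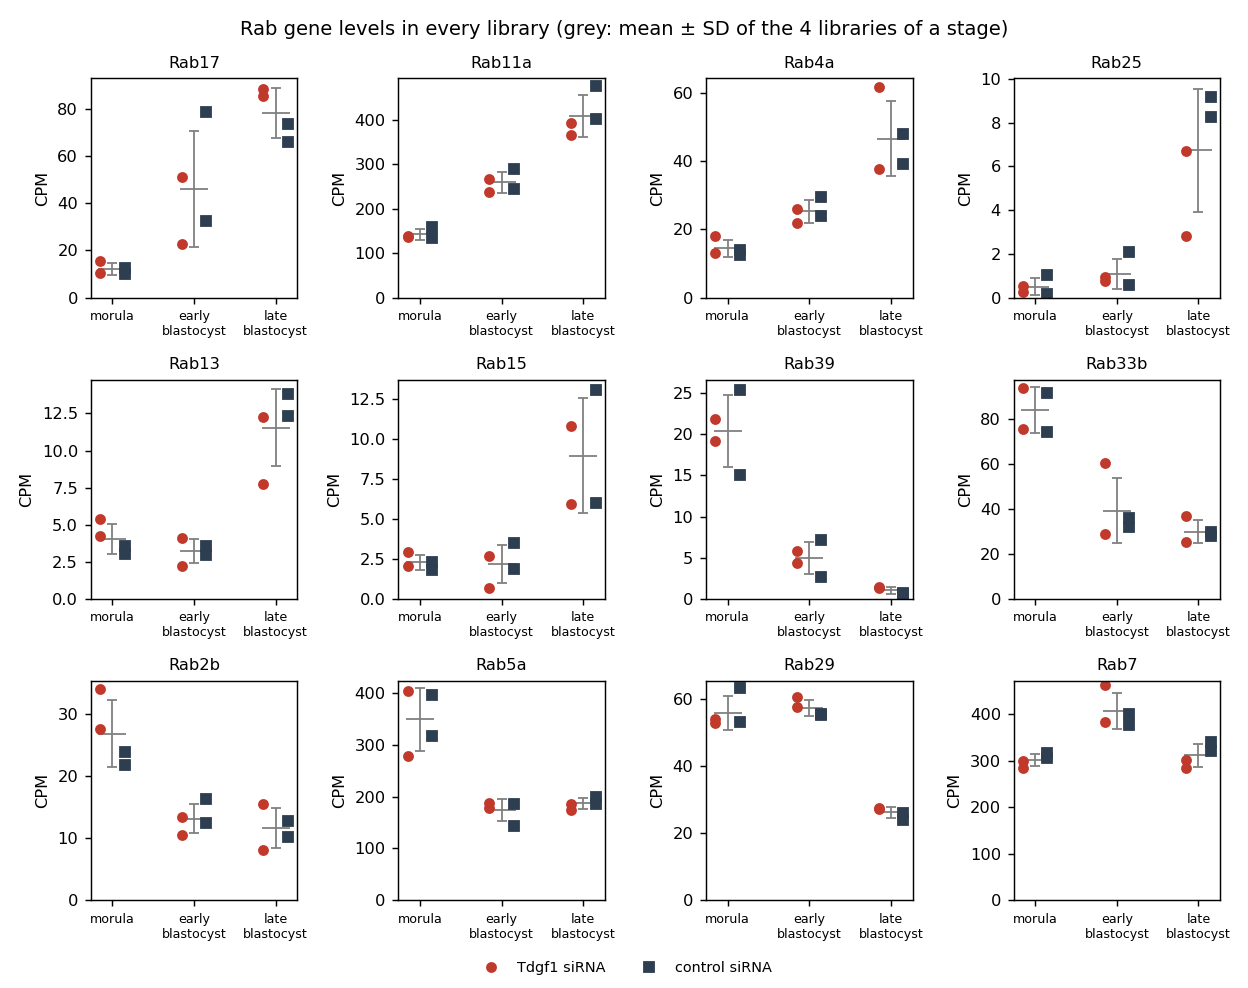
CPM of 12 Rab genes in each library at the 3 stages, with circles for Tdgf1 siRNA, squares for control siRNA and grey bars for the mean ± SD of the 4 libraries of a stage. Rab17 is at least 65.9 CPM in late blastocysts and at most 15.5 CPM in morulae, and Rab39 is at most 1.48 CPM in late blastocysts and at least 15 CPM in morulae.

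Of the genes of the early endosome, the sorting station of newly internalized cargo, 2 of the 7 tested rose between late blastocyst and morula and 2 fell. Rab5a drives early endosome fusion. Tdgf1 siRNA embryos held 405 and 279.7 CPM as morulae, 189 and 178 CPM as early blastocysts and 175 and 186 CPM as late blastocysts. Control siRNA embryos held 397 and 318 CPM, 143 and 186 CPM and 186 and 200.3 CPM over the same stages. All morulae lay above all blastocysts, and the drop fell between morula and early blastocyst (log2 change -0.99, SE 0.13, limma adjusted p = 0.000162), with 0.11 (SE 0.13) for the later step. Its paralogs Rab5b and Rab5c, which share the early endosome, did not pass in any stage comparison. Rab5b averaged 21.5 ± 2.72, 17.7 ± 5.80 and 24.8 ± 1.70 CPM over the 3 stages, and Rab5c 47.9 ± 4.54, 58.7 ± 9.08 and 58.3 ± 13.6 CPM.

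Rab21, which carries integrins through endosomes, passed the test as higher in late blastocysts than at either earlier stage. The Tdgf1 siRNA libraries read 27.8 and 38.2 CPM at morula, 43.5 and 33.2 CPM at early blastocyst and 64.7 and 62.7 CPM at late blastocyst. The control siRNA libraries read 30.9 and 29.5 CPM, 44.1 and 32.7 CPM and 68.2 and 56.5 CPM over the same stages. The change was 0.93 against morula (SE 0.15, limma adjusted p = 0.000122) and 0.68 against early blastocyst (SE 0.15, limma adjusted p = 0.00271), both without overlap. From morula to early blastocyst Rab21 did not pass, though the early blastocyst libraries numbered 1 lay above all morulae. Whether the 2 steps differ was not tested. Rab31, which acts between the Golgi and endosomes, rose by 0.70 on the log2 scale from early to late blastocyst (SE 0.19, limma adjusted p = 0.00832), its late range of 12.2 to 20.3 CPM lying above the early one of 5.74 to 11.2 CPM. Rab20, reported on endosomes and phagosomes, averaged 146 ± 16.6 CPM in morulae, 107 ± 3.55 CPM in early blastocysts and 117 ± 8.60 CPM in late blastocysts. Its fall between late blastocyst and morula (-0.31, SE 0.11, limma adjusted p = 0.0215) was not past the threshold with the 2 siRNAs of a pair averaged (limma adjusted p = 0.0786). Rab22a, an early endosome gene, averaged 24.5 ± 4.84, 34.5 ± 7.94 and 31.6 ± 4.45 CPM and did not pass.

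Rab genes of late endosomes and lysosomes split, with 2 of the 6 tested higher and 2 lower in late blastocysts than in morulae. Rab9, which returns receptors from late endosomes to the Golgi, averaged 66.9 ± 9.70, 93.3 ± 6.46 and 120 ± 16.5 CPM over the stages, with no overlap between any 2 stages. Its change between late blastocyst and morula was 0.81 (SE 0.13, limma adjusted p = 0.000139). Despite the lack of overlap, its step from early to late blastocyst did not pass the test. Rab12 is reported to send transferrin receptor to lysosomes. Levels with Tdgf1 siRNA were 20.7 and 21.3 CPM in morulae, 35.3 and 18.4 CPM in early blastocysts and 45.2 and 62.2 CPM in late blastocysts. Levels with control siRNA were 22 and 15.3 CPM, 31.6 and 15.8 CPM and 43.5 and 38.3 CPM over the same stages. Late blastocysts lay above all morulae (log2 change 1.11, SE 0.22, limma adjusted p = 0.000687). Its early blastocyst levels split by number, 35.3 and 31.6 CPM in the libraries numbered 1 against 18.4 and 15.8 CPM in those numbered 2. This is again the order of the trophectoderm marker sums, whose part was not tested. The order is not particular to rising members. Rab14, which did not pass, had 240 and 193 CPM against 161 and 179 CPM. Rab33b, which fell, had 60.5 and 36.0 CPM against 28.6 and 32.0 CPM. Other members, among them Rab34 and Rab20, had the reverse order, and some had neither. The change from early to late blastocyst was 0.86 over all libraries (SE 0.22, limma adjusted p = 0.00669), 0.37 over those numbered 1 (limma adjusted p = 0.101) and 1.35 over those numbered 2.

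Rab29 and Rab38 passed the test as lower at the later step. Rab29 acts at the trans-Golgi and on stressed lysosomes. With Tdgf1 siRNA it stood at 52.8 and 54 CPM in morulae, 60.6 and 57.7 CPM in early blastocysts and 27.2 and 27.4 CPM in late blastocysts. With control siRNA it stood at 53.2 and 63.5 CPM, 55.6 and 55.3 CPM and 26.1 and 24 CPM over the same stages. The change was -1.03 (SE 0.12, limma adjusted p = 2.27e-05), against 0.04 (SE 0.12) for early blastocyst minus morula. Rab38, known from melanosomes and other lysosome-related organelles, averaged 9.26 ± 1.53 CPM in morulae, 9.96 ± 1.76 CPM in early blastocysts and 3.41 ± 1.19 CPM in late blastocysts. Its change at the later step was -0.96 (SE 0.17, limma adjusted p = 0.000617). Whether the 2 steps differ in either gene was not tested.

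Rab7, the main Rab of late endosomes and lysosomes, peaked at the early blastocyst. Tdgf1 siRNA embryos held 300.2 and 284 CPM as morulae, 462 and 383 CPM as early blastocysts and 301 and 283 CPM as late blastocysts. Control siRNA embryos held 316 and 306 CPM, 401 and 377 CPM and 321 and 341 CPM over the same stages. The early blastocysts lay above both other stages. The change was 0.42 into that stage (SE 0.10, limma adjusted p = 0.00483) and -0.38 out of it (SE 0.10, limma adjusted p = 0.00662), and the fall was not past the threshold under quantile scaling (limma adjusted p = 0.0596) or over control siRNA libraries alone (limma adjusted p = 0.228). Rab24, linked to autophagy, averaged 122 ± 9.08, 127 ± 20.6 and 122 ± 14.0 CPM over the stages.

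**Figure D3:**
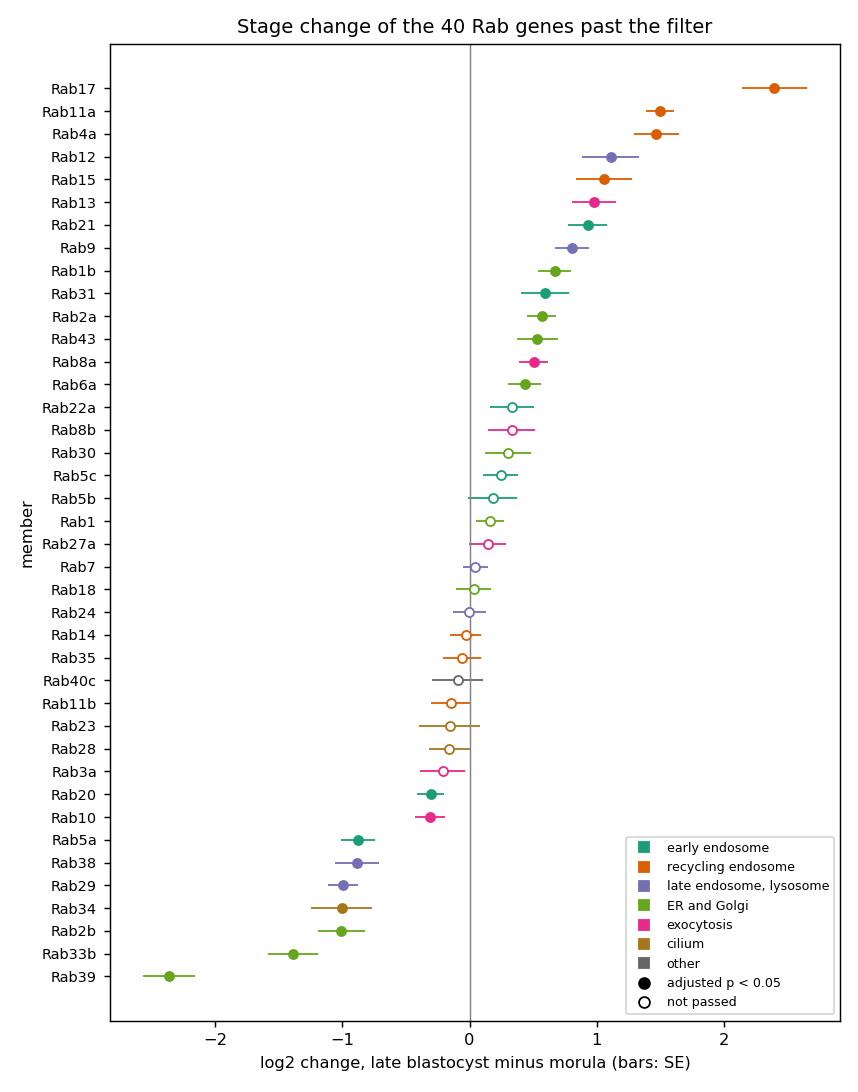
Log2 change between late blastocyst and morula for the 40 tested Rab genes (horizontal axis, bars are SE), ordered by size and coloured by role, with filled points for adjusted p under 0.05. Changes run from -2.37 for Rab39 to 2.40 for Rab17, with 14 filled points right of 0 and 9 left of it.

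Among the Rab genes of the endoplasmic reticulum and Golgi, 4 of the 10 tested rose between late blastocyst and morula and 3 fell. Rab39, reported on Golgi and phagosomes, lies on chromosome 9 (53684110 to 53706232, minus strand). The Tdgf1 siRNA libraries read 21.8 and 19.1 CPM at morula, 5.83 and 4.36 CPM at early blastocyst and 1.48 and 1.32 CPM at late blastocyst. The control siRNA libraries read 25.4 and 15 CPM, 2.65 and 7.19 CPM and 0.55 and 0.694 CPM over the same stages. No 2 stages overlapped. Each step was a fall, -1.49 to early blastocyst (SE 0.20, limma adjusted p = 0.000172) and -0.88 from there on (SE 0.20, limma adjusted p = 0.00346). Over both steps the change was -2.37 (SE 0.20, limma adjusted p = 4.87e-07), understated by the pseudocount because the late level was so low. Rab39 reached the filter through its morula level of 20.3 CPM, since it averaged 5.01 CPM in early blastocysts and 1.01 CPM in late blastocysts.

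Rab33b acts at the Golgi and in autophagosome formation. Levels with Tdgf1 siRNA were 93.6 and 75.7 CPM in morulae, 60.5 and 28.6 CPM in early blastocysts and 36.8 and 25.2 CPM in late blastocysts. Levels with control siRNA were 74.3 and 91.6 CPM, 36 and 32 CPM and 27.8 and 29.9 CPM over the same stages. All late blastocysts lay below all morulae (log2 change -1.39, SE 0.20, limma adjusted p = 3.95e-05). Most of that fall lay before the early blastocyst (-1.07, SE 0.20, limma adjusted p = 0.00119), and the later step was -0.31 (SE 0.20). Rab2b is a Golgi Rab. With Tdgf1 siRNA it stood at 34.1 and 27.6 CPM in morulae, 10.6 and 13.4 CPM in early blastocysts and 8.03 and 15.5 CPM in late blastocysts. With control siRNA it stood at 23.9 and 21.8 CPM, 12.4 and 16.3 CPM and 10.2 and 12.7 CPM over the same stages. The late blastocysts again lay below the morulae (log2 change -1.01, SE 0.19, limma adjusted p = 0.00035). Rab2b shares 4.68% of its exon bases with Tox4 on the opposite strand, which averaged 87.1 CPM. Since strand is not stated, some reads given to Rab2b may be those of Tox4. Its paralog Rab2a moved the other way, with 252 ± 25.9 CPM in morulae, 382 ± 46.4 CPM in early blastocysts and 374 ± 22.9 CPM in late blastocysts, a rise of 0.57 on the log2 scale from morula to late blastocyst (SE 0.11, limma adjusted p = 0.000699).

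Rab1 (annotated as Rab1a) and Rab1b, which carry cargo between the endoplasmic reticulum and Golgi, had their highest means in early blastocysts, though neither fell by the test from there to late blastocyst (limma adjusted p = 0.178 and 0.0507). The per-library values of Rab1b show the same shape in both siRNAs. Tdgf1 siRNA embryos held 88.7 and 93.5 CPM as morulae, 190.4 and 155 CPM as early blastocysts and 119 and 152 CPM as late blastocysts. Control siRNA embryos held 85.2 and 71.4 CPM, 189 and 156 CPM and 125 and 152 CPM over the same stages. Its change into early blastocyst was 1.0 (SE 0.13, limma adjusted p = 0.000114), and its late level of 137 ± 17.7 CPM remained above the morulae (0.67, SE 0.13, limma adjusted p = 0.000471). Rab1 averaged 317 ± 34.0, 403 ± 28.6 and 354 ± 24.7 CPM, and its rise to early blastocyst (0.35, SE 0.11, limma adjusted p = 0.0239) was not past the threshold with pairs averaged (limma adjusted p = 0.0789) or in edgeR's quasi-likelihood test on the recovered reads (adjusted p = 0.0682). Rab18, of lipid droplets and the endoplasmic reticulum, averaged 138 ± 9.75, 184 ± 36.5 and 142 ± 16.2 CPM over the stages, and the limma adjusted p of its first step was 0.0477, or 0.118 with pairs averaged. Rab6a, of retrograde Golgi transport, averaged 88.8 ± 9.77, 94.3 ± 16.4 and 121 ± 3.20 CPM, a change of 0.43 between late blastocyst and morula (SE 0.13, limma adjusted p = 0.00994). Its paralog Rab6b lay below the filter at 1.90 to 6.05 CPM. Rab43, a Golgi Rab, averaged 5.19 ± 1.24 CPM in late blastocysts and 2.48 ± 0.780 CPM in morulae (log2 change 0.53, SE 0.16, limma adjusted p = 0.011). With 3.67 CPM in early blastocysts, it too reached the filter only through its late blastocyst level. Rab30, also at the Golgi, did not pass.

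Of the Rab genes of secretion, 2 of the 6 tested rose between late blastocyst and morula and 1 fell. Rab13 is known for delivery of proteins to tight junctions. The Tdgf1 siRNA libraries read 4.23 and 5.4 CPM at morula, 2.22 and 4.13 CPM at early blastocyst and 7.77 and 12.3 CPM at late blastocyst. The control siRNA libraries read 3.55 and 3.04 CPM, 2.98 and 3.56 CPM and 13.8 and 12.3 CPM over the same stages. All late blastocysts lay above all earlier libraries, with a change of 1.14 from early blastocyst (SE 0.17, limma adjusted p = 0.000173) and 0.98 from morula (SE 0.17, limma adjusted p = 0.000241). Rab8a, which carries Golgi vesicles to the surface and cilium, averaged 168 ± 3.42, 238 ± 29.4 and 241 ± 19.9 CPM over the stages, a change of 0.49 at the first step (SE 0.11, limma adjusted p = 0.0047) and 0.02 (SE 0.11) at the second. Its paralog Rab8b averaged 4.71 ± 2.69, 4.68 ± 0.797 and 6.61 ± 1.88 CPM and did not pass.

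Rab10, which delivers cargo to basolateral membranes, averaged 147 ± 3.27, 110.5 ± 17.7 and 118 ± 7.13 CPM. Its fall between late blastocyst and morula (-0.31, SE 0.12, limma adjusted p = 0.0341) was lost in 12 of 24 alternatives, among them with pairs averaged (limma adjusted p = 0.0947) and over libraries numbered 2 (limma adjusted p = 0.0704). The Rab3 and Rab27 genes, of regulated secretion, were scarce. Rab3a averaged 7.82 ± 1.80, 5.30 ± 1.23 and 6.28 ± 1.56 CPM and did not pass. Rab3b and Rab3d reached at most 4.18 and 3.47 CPM, and Rab3c had 0 to 6 reads. Rab27a averaged 4.85 ± 0.561, 3.66 ± 0.248 and 5.86 ± 1.96 CPM and did not pass, and Rab27b had 0 to 6 reads. Rab37, a secretory granule Rab, had 1.4 to 3.71 CPM in late blastocysts and 0.0820 to 0.290 CPM in early blastocysts (fit with no filter, log2 change 0.59, SE 0.11, limma adjusted p = 0.00775).

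Of the 3 genes linked to cilia, Rab34 fell between late blastocyst and morula. Levels with Tdgf1 siRNA were 7.51 and 8.51 CPM in morulae, 2.22 and 9.41 CPM in early blastocysts and 1.83 and 3.53 CPM in late blastocysts. Levels with control siRNA were 8.03 and 10.5 CPM, 3.89 and 7.41 CPM and 2.48 and 2.16 CPM over the same stages. Late blastocysts lay below morulae (log2 change -1.01, SE 0.24, limma adjusted p = 0.00222). Early blastocysts spread over 2.22 to 9.41 CPM, with the libraries numbered 1 below those numbered 2 in both siRNAs. Rab23, an inhibitor of Hedgehog signalling, ranged over 8.5 to 23.1 CPM in all libraries and Rab28 over 16.5 to 26.2 CPM, and neither passed. Rab40c, of the Rab40 group that joins ubiquitin ligases, averaged 19.9 ± 4.11, 20.9 ± 5.77 and 18.7 ± 5.36 CPM and did not pass. The members below the filter not named so far, Rab9b, Rab19, Rab26, Rab32, Rab33a, Rab36, Rab39b, Rab40b, Rab42 and Rab44, stayed at or below 4.68 CPM in every library. In the fit with no filter, Rab33a fell between late blastocyst and morula (-0.32, SE 0.09, limma adjusted p = 0.0349), with at most 0.611 CPM in late blastocysts and 0.840 to 1.92 CPM in morulae. Rab32 passed that fit for late minus early blastocyst (0.26, SE 0.07, limma adjusted p = 0.0371), but its libraries overlap and the difference lies in the Tdgf1 siRNA arm. Its late blastocysts had 1.92 and 1.32 CPM with Tdgf1 siRNA and 0.642 and 0.231 CPM with control siRNA, and its early blastocysts 0.0820 and 0.0765 CPM with Tdgf1 siRNA and 0.496 and 0.290 CPM with control siRNA, which are 1 to 22 reads per library over the series.

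The promoters of the 3 risers and 3 fallers with the largest changes between late blastocyst and morula, among members with a single window in the RefSeq promoter table, are shown. Their shared direction comes from this choice. Each window runs from 250 bases before to 50 bases after the RefSeq start, read 5′ to 3′ on the gene's strand (GRCm38.p6). The risers are Rab17 (chr1:90967618-90967917, minus strand), Rab11a (chr9:64737707-64738006, minus strand) and Rab12 (chr17:66519621-66519920, minus strand). The fallers are Rab39 (chr9:53706183-53706482, minus strand), Rab33b (chr3:51483716-51484015, plus strand) and Rab2b (chr14:52279346-52279645, minus strand). The Rab17 window, placed at the RefSeq start, lies inside the GENCODE span of the gene. Capitals mark matches to the motifs searched.
Rab17: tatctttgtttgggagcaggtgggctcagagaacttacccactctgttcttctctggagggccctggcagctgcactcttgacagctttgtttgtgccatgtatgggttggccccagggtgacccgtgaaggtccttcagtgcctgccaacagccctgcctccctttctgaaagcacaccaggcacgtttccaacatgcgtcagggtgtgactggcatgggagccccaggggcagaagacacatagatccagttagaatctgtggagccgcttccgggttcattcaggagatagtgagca
Rab11a: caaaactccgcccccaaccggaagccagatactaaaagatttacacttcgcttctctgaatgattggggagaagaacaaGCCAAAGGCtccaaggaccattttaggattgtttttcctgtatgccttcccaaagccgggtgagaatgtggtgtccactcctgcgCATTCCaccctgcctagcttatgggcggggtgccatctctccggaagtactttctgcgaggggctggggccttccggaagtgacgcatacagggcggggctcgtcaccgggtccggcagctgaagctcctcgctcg
Rab12: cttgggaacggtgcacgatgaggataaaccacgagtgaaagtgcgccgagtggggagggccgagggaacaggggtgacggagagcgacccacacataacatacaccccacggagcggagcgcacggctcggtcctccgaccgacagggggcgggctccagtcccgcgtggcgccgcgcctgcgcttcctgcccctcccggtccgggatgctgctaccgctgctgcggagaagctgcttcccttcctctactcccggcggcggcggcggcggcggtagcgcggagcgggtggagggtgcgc
Rab39: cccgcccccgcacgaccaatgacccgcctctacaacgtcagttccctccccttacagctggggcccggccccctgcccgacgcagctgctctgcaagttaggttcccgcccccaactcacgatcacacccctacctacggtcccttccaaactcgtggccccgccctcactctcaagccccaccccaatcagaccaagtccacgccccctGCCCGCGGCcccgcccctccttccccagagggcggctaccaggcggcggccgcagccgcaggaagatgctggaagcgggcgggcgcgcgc
Rab33b: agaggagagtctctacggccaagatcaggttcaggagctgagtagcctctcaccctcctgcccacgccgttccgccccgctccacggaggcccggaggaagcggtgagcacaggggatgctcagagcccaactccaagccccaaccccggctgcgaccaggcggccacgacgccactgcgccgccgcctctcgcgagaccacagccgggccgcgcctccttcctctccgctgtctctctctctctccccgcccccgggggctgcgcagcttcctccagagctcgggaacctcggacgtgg
Rab2b: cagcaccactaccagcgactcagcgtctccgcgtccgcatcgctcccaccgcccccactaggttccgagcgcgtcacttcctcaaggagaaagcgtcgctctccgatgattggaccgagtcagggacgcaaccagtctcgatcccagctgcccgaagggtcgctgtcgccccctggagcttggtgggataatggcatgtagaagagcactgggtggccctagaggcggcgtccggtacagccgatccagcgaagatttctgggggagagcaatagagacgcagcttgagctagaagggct
The letters searched on both strands were GGAATG for TEAD factors and GCCNNNGGC for TFAP2 factors, both active in trophectoderm, TCACGTGA for the core of the lysosomal gene element, and CACGTG for the E-box, which lies inside that core. The Rab11a window holds 1 TEAD match that begins 86 bases before the start site and 1 TFAP2 match that begins 171 bases before it, and the Rab39 window 1 TFAP2 match that begins 40 bases before it. The other 4 hold none of the letters. Over all windows, 48 of the 58 members matched the table by symbol, with 60 windows. Of the 14 rising members 12 had a window, and of the 9 falling members 8. The TEAD letters occurred in 14.7% of all promoter windows, in 4 of the 19 windows of rising members (21.1%) and in 2 of the 9 windows of falling members (22.2%). The TFAP2 letters occurred in 16.6% of all windows, in 8 of 19 windows of rising members (42.1%) and in 3 of 9 windows of falling members (33.3%). Those 8 windows belong to Rab9, Rab11a, Rab13, Rab15 and Rab43 only. The TFAP2 letters also occurred in 20 of the 60 windows of all members (33.3%) and in 17 of the 47 windows of tested members (36.2%), whatever their change. The lysosomal core occurred in 0.974% of all windows and in those of Rab21, Rab24 and Rab5a, and the E-box in 7.15% of all windows and 6 of the 60 member windows. Windows of 1 gene overlap, so they are not independent.

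Paralogs of the same number were also set against each other within each library, as a log2 ratio of CPM. The ratio is not per length, so only its change between stages is read, and these ratios were chosen after the values had been seen. Rab11a over Rab11b was 1.93 ± 0.243 in late blastocysts and 0.25 ± 0.284 in morulae, a change of 1.67. Rab2a over Rab2b was 5.05 ± 0.471 in late blastocysts and 3.24 ± 0.232 in morulae, a change of 1.81. Rab5a over Rab5b changed by -1.10, and Rab5a over Rab5c by -1.15. In these 4 ratios no late blastocyst library overlapped a morula. The exact permutation p was 0.0286 each (two-sided, 70 assignments of 4 against 4 libraries, the smallest they can give). Adjusted over the 7 ratios, this permutation p was 0.05, which is at the threshold and not below it. The assignments treat the libraries of a stage as independent and ignore same-numbered pairs, so these p-values may be too small. Rab1 over Rab1b changed by -0.53, with overlap (exact permutation p = 0.0571, adjusted 0.08). Rab5b over Rab5c changed by -0.05 (SE 0.19) and Rab8a over Rab8b by -0.10 (SE 0.43), with exact permutation p = 0.771 and 0.886. Among pseudogenes that could share reads with these genes, Rab11b-ps2 reached at most 0.933 CPM and Rab9b-ps1 was at 0.

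**Figure D4:**
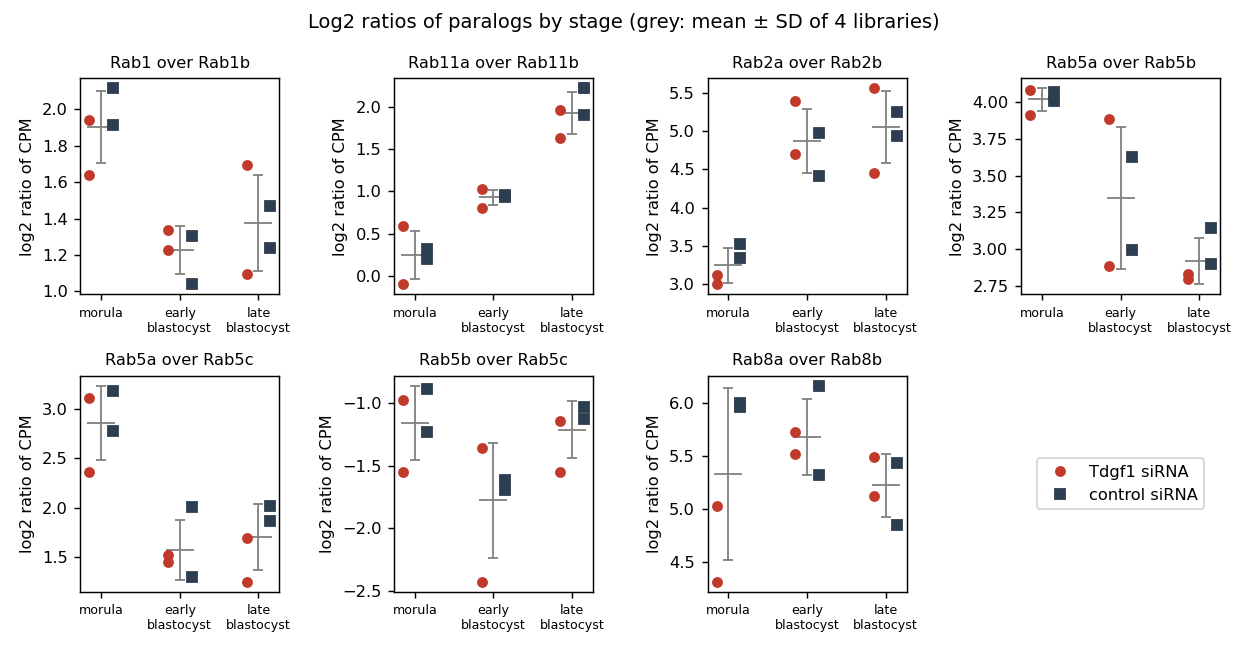
Log2 ratio of CPM of paralogous Rab genes in each library at the 3 stages, with circles for Tdgf1 siRNA, squares for control siRNA and grey bars for the mean ± SD of 4 libraries. The vertical axes differ and do not start at 0. Rab11a over Rab11b is 1.93 ± 0.243 in late blastocysts and 0.25 ± 0.284 in morulae, with every late value above every morula value.

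The machinery that acts on Rab proteins was described from 4 lists. Of 15 tested genes that deliver Rabs to membranes (lipid transfer, escort and extraction), 3 rose and 2 fell between late blastocyst and morula, with a median log2 change of 0.01. Rabac1 rose by 0.92 on the log2 scale, while Rabggta, a subunit of the enzyme that attaches the lipid anchor, changed by -0.55 and Yipf4, a Golgi protein, by -0.90. Of 40 tested activators (guanine nucleotide exchange factors and their subunits), 21 rose and 2 fell, with a median of 0.34, beside the 36.6% and 24.3% of all genes. Rin3, an exchange factor for Rab5 proteins, averaged 30.2 ± 6.57 CPM in late blastocysts and 0.852 ± 0.325 CPM in morulae (log2 change 2.91, SE 0.29, limma adjusted p = 1.56e-06). Trappc6a, a subunit of the TRAPP complexes that activate Rab1, rose by 2.38 on the log2 scale, and Dennd5b changed by -0.66.

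Of 29 tested GTPase-activating proteins, which switch Rabs off, 9 rose (31.0%) and 4 fell (13.8%), with a median of 0.25, beside 36.6% and 24.3% of all genes. Tbc1d7, which is also a subunit of the TSC complex, rose by 2.07 and Tbc1d2 by 1.24 on the log2 scale, and Tbc1d12 changed by -0.78 and Evi5 by -0.61. Of 42 tested effectors, 20 rose (47.6%) and 9 fell (21.4%), with a median of 0.35, beside 36.6%, 24.3% and a median of 0.13 over all genes. The 2 largest risers bind Rab11 proteins. Of the other Rab11 adaptors listed, Rab11fip5 also rose, Rab11fip3 fell, Rab11fip1 did not pass and Rab11fip2 lay below the filter. Rab11fip4, an adaptor of Rab11, averaged 118 ± 24.6 CPM in late blastocysts and 17.3 ± 3.71 CPM in morulae (log2 change 2.54, SE 0.30, limma adjusted p = 7.84e-06). Myo5b, the motor that moves Rab11 endosomes to the apical surface, averaged 63.2 ± 11.3 CPM in late blastocysts and 13.0 ± 4.41 CPM in morulae (log2 change 2.03, SE 0.20, limma adjusted p = 1.65e-06). Zfyve20, the early endosome effector also called rabenosyn, averaged 15.9 ± 2.17 CPM in late blastocysts and 35.7 ± 5.70 CPM in morulae (log2 change -1.01, SE 0.16, limma adjusted p = 0.000115). Unc13d, a Rab27 effector of secretion, changed by -0.84.

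Tdgf1 itself stood at 15.5 and 11 CPM in Tdgf1 siRNA morulae, against 29.4 and 23.4 CPM in control siRNA morulae. In early blastocysts it stood at 9.27 and 15.2 CPM with Tdgf1 siRNA, against 21.7 and 13.1 CPM with control siRNA. Late blastocysts had 49.5 and 70.8 CPM with Tdgf1 siRNA, against 97.3 and 84.6 CPM with control siRNA. In early blastocysts the library labelled Tdgf1 siRNA replicate 2 thus lay above the library labelled control siRNA replicate 2. No Rab gene passed the test between Tdgf1 siRNA and control siRNA at morula, early blastocyst or late blastocyst, over the 3 stages together, or in the interaction of siRNA and stage (0 of 40 in each, limma, where 0.0% of all genes were called). edgeR's quasi-likelihood test and DESeq2 on the recovered reads also called 0 of the 40 in each. Over all genes edgeR called 0 in each, and DESeq2 called 0 except for 1 gene at late blastocyst and 1 in the interaction. At an unadjusted limma p under 0.05 there were 2 members at morula, 0 at early blastocyst, 1 at late blastocyst, 3 over the stages and 0 in the interaction. Over all 10751 genes there were 194, 112, 221, 268 and 97 in the same order. At that p, edgeR's quasi-likelihood test had 2, 0, 1 and 3 members at morula, early blastocyst, late blastocyst and over the stages, and DESeq2 2, 0, 0 and 3. Over all genes edgeR had 265, 144, 222 and 304, and DESeq2 286, 155, 222 and 327. With 2 libraries a group, only differences well above the spread could pass. The log2 differences ran from -0.74 to 0.70 at morula, from -0.52 to 0.33 at early blastocyst and from -0.31 to 0.57 at late blastocyst.

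At morula the smallest p-values were those of Rab31, Rab8b and Rab30. Rab31 stood at 6.38 and 6.22 CPM in Tdgf1 siRNA morulae and at 13.5 and 12.3 CPM in control siRNA morulae (log2 difference -0.74, SE 0.26, limma adjusted p = 1.0). The groups did not overlap, but at the later stages they did. Rab8b stood at 8.37 and 5.13 CPM with Tdgf1 siRNA and at 2.71 and 2.66 CPM with control siRNA (0.70, SE 0.26), 28 to 97 reads per library over the series. Rab30 stood at 16 and 10.9 CPM with Tdgf1 siRNA and at 9.42 and 7.51 CPM with control siRNA (0.49, SE 0.26). At early blastocyst Rab5c stood at 65.6 and 65.1 CPM with Tdgf1 siRNA and at 57.9 and 46.1 CPM with control siRNA (0.32, SE 0.19). Rab10 stood at 117 and 123 CPM with Tdgf1 siRNA and at 84.2 and 118 CPM with control siRNA (0.25, SE 0.17). Rab17 averaged 36.8 ± 20.1 CPM with Tdgf1 siRNA and 55.5 ± 32.6 CPM with control siRNA (SD, n = 2 each), a log2 difference of -0.52 (SE 0.37), with overlap.

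At late blastocyst Rab27a stood at 7.42 and 7.68 CPM with Tdgf1 siRNA and at 4.40 and 3.93 CPM with control siRNA (0.52, SE 0.21, limma adjusted p = 0.9999). Rab40c stood at 22 and 23.9 CPM with Tdgf1 siRNA and at 16.8 and 12 CPM with control siRNA (0.57, SE 0.28). Rab5c stood at 54.3 and 78.5 CPM with Tdgf1 siRNA and at 51.2 and 49.4 CPM with control siRNA (0.36, SE 0.19). These are differences of 2 libraries against 2 that did not pass the test, listed for their values.

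**Figure D5:**
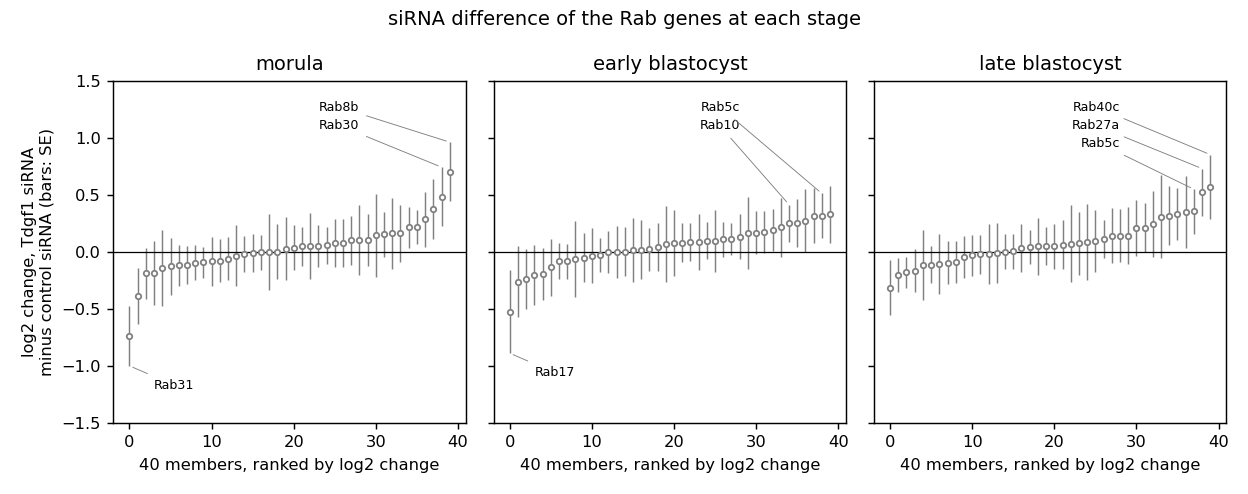
Log2 difference between Tdgf1 siRNA and control siRNA for the 40 tested Rab genes at each stage, ranked within the stage (bars are SE), with the 3 smallest unadjusted p-values labelled. At morula the differences run from -0.74 (Rab31) to 0.70 (Rab8b), and none of the 40 passed at any stage.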

How the data were processed

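Expression was measured by RNA-seq in 12 libraries. Per the submitters' processing notes, HISAT2 2.1.0, Cufflinks, HTSeq and edgeR were used with mm10, and whether counting used strand is not stated. The values deposited by the authors are headed RPKM but are CPM divided by 3.582. Every column sums to 279173.646, and 100.0% of values are whole reads within 0.01, so levels are given as CPM and carry no gene length. This differs from the unit assumed when the tests were planned, and the planned test on the log2 scale fits both. For levels per kb, CPM was divided by the union of GENCODE M21 exons.

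Differences were tested with limma 3.58.1 (R 4.3.3, eBayes with trend) on log2(deposited value + 1), a pseudocount of 3.582 CPM that understates changes of low genes. Genes averaging 1 deposited unit or more (10751) were fitted over 6 group means, with Benjamini-Hochberg adjustment at 0.05. A stage contrast averages both siRNAs. edgeR 4.0.16 and DESeq2 1.42.0 on the recovered reads, other filters, pseudocounts and scalings, single siRNAs and numbers, and leaving out each library were alternatives. Only the main limma fit and edgeR were run on simulated data, for late blastocyst minus morula and with independent libraries. Libraries of 1 group differed beyond sampling noise (chi-square per gene 20.7 to 49.8), so none were merged.

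Same-numbered Tdgf1 and control siRNA libraries of a stage deviated together (correlations of 0.458 in morula, 0.593 in early blastocyst and 0.101 in late blastocyst). In alternatives only, the numbers were therefore taken as pairs inside each stage, a reading of the values that no label states. The main fit and the permutation of the paralog ratios ignore these pairs, so their stage p-values may be too small. With pairs averaged, the genes called from morula to early blastocyst went from 3623 to 2204. Members, lists and tests were chosen with earlier results of these data known. Named with values are the 8 largest rises and 8 largest falls past the threshold between late blastocyst and morula, the 4 and 4 for each neighbouring pair of stages, the 3 smallest p-values at each stage for siRNA, the 6 highest levels per kb, the paralog families, and the 2 largest rises and falls of each other list. Members outside this rule were added after their values were seen. Of the other lists, 2 genes that this rule names are not reported here. List entries Pra1 and Rbsn had no row of that name.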

Additional observations from a re-analysis of the deposited data

Results flagged for a closer look

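Of 84 sets of 4 libraries tested for a library far from the other 3 of its stage, 5 were picked out, and chance picks out about 1 in 20 sets. Rab1 stood at 446.1 CPM in the early blastocyst library of Tdgf1 siRNA replicate 1, against 385.9 to 392.6 CPM in the other 3. Rab10 stood at 84.24 CPM in that of control siRNA replicate 1, against 116.5 to 122.6 CPM. Rab11a stood at 159.8 CPM in the morula library of control siRNA replicate 1, against 134.8 to 138.8 CPM. Rab29 stood at 63.47 CPM in the morula library of control siRNA replicate 2, against 52.8 to 54 CPM. Rab5c stood at 78.46 CPM in the late blastocyst library of Tdgf1 siRNA replicate 2, against 49.44 to 54.29 CPM. No library recurs among the 5.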

How the results depend on the processing

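For early blastocyst over morula, the 10 rising members became 6 over control siRNA libraries only, 5 over Tdgf1 siRNA libraries only and 6 over libraries numbered 2. Over all genes, 2114 rising became 1023, 946 and 1730 in the same settings. For late over early blastocyst, the 9 rising members became 4 over control siRNA libraries only and 5 over libraries numbered 1. The 4 falling members became 7 with TMM factors and 8 each with edgeR, DESeq2 and libraries numbered 1. In the same order, 2901 rising of all genes became 1775 and 2143, and 1902 falling became 2332, 2350, 2470 and 1660. For late blastocyst over morula, the 9 falling members became 5 with a filter at a mean of 5 deposited units, which tested 6954 genes. Over all genes, 2617 falling became 1993 with that filter. Apart from fewer genes or samples tested, the cause was not tested. Leaving out 1 library in turn gave 7 to 11 rising and 5 to 7 falling members at the first step, 7 to 11 and 4 to 7 at the second, and 13 to 15 and 7 to 9 over both. The 7 falling at the second step came without the early blastocyst library of Tdgf1 siRNA replicate 2.

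With the replicate block as pair means, 7 members rose and 5 fell at the first step, 7 and 4 at the second, and 14 and 7 over both. The same fit had 1303 and 901, 2121 and 1309, and 3376 and 2182 over all genes. With the block as a fixed term, siRNA calls among Rab genes stayed at 0, as in every other setting run, while over all genes it called 5 at morula, 5 at early blastocyst, 3 at late blastocyst, 0 over the stages and 1 in the interaction, and the fit with no filter called 11 at late blastocyst. Of 932 alternatives of named genes, 903 kept direction and side of the threshold, 27 kept direction only and 2 reversed, both for Rab17 between siRNAs in early blastocysts (0.01 without Tdgf1 siRNA replicate 2, 0.0716 without control siRNA replicate 1, over a range from -1.12 to 0.0716). The calls lost were of Rab10, Rab17, Rab4a, Rab12, Rab7, Rab2b (limma adjusted p = 0.162 over control siRNA libraries) and Rab39 (limma adjusted p = 0.0609 over Tdgf1 siRNA libraries at the later step). The Rab5b over Rab5c ratio ran from -0.18 to 0.0618 when 1 library was left out, at 0.011, 0.0416 and 0.0618 in the reversed cases. The Rab8a over Rab8b ratio ran from -0.44 to 0.12, at 0.12, 0.11 and 0.02 in the reversed cases, and was 0.63 over Tdgf1 siRNA libraries only. The 18 members below the filter had means under 3.582 CPM, and little can be said of those with few reads. Reads per library were 0 to 6 for Rab3c and 2 to 107 for Rab25.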
